A study of Saccharomyces cerevisiae with 24 samples.

Results

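At high residual glucose, the transcriptome of the yeast strain V5.TM6*P was compared with that of its parental strain V5 in the RNA samples that were taken at the highest glucose concentrations of the series. Residual glucose at sampling was, by the labels, 36.5 and 34.8 g/L in the V5.TM6*P samples and 38.4 and 35 g/L in the V5 samples. They amount to 4 of the 12 RNA samples and 8 of the 24 arrays of the series, with 2 RNA samples a strain and 2 arrays for each RNA sample. The remaining samples were taken at middle glucose (26.3 and 25.1 g/L in V5.TM6*P, 25.5 and 24.4 g/L in V5) and at low glucose (13.5 and 5.6 g/L in V5.TM6*P, 10.5 and 7.4 g/L in V5).

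Both strains are Saccharomyces cerevisiae of the wine yeast V5 (MATa ura3 gal) that carry an integrated URA3 gene and so need no uracil. V5.TM6*P lacks the hexose transporter genes HXT1 to HXT7 and carries a cassette for Tm6*, a chimera with the amino-terminal part of Hxt1 and the carboxy-terminal part of Hxt7. V5 has its own transporter genes. All cultures were grown aerobically in bioreactors on a defined minimal medium with glucose as the only carbon source. The labels do not say which bioreactor run each RNA sample came from, so the p-values measure only the spread between these samples, which may be technical.

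Yeast given plenty of glucose ferments it to ethanol even in air, and holds down the genes for respiration, gluconeogenesis and the use of other carbon sources, a response named glucose repression. The repressor Mig1 binds GC-rich boxes upstream of such genes while glucose is plentiful. When glucose runs low, the activator Cat8 raises genes of gluconeogenesis and of the uptake and use of C2 and C3 compounds, and the Hap2/3/4/5 complex raises genes of the respiratory chain. The question here was which transcripts differed when glucose outside the cell was high for both strains and the strains differed in their transporters.

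Each array is a filter with 9600 spots, hybridized with radioactively labelled cDNA made from amplified RNA. A level is given below as the background-subtracted intensity relative to the median probe of the same array, so that 1 is the median probe, and the value of an RNA sample is the mean of its 2 arrays on the log2 scale. The fold changes are log2 differences, V5.TM6*P minus V5, given with their SE (n = 2 RNA samples a strain, with the spread pooled over the 6 groups). A probe was called when its adjusted p in limma, over all 6330 probes, was below 0.05. Levels of different probes were not compared, since their brightness depends on the spot. Median net intensity was 13.1 to 20.3 on the 8 arrays over a background of 15.0 to 30.5. The authors' table holds 7477 of the spots, PCR products of yeast open reading frames. The 2123 spots that it leaves out served as a limit for dim probes: their 95th percentile was 0.424 to 0.555 times the array median. The names of 1052 probes (16.6%) could be set, all of them genes that the study listed from these same arrays, so the direction of a named gene and the share of a gene list that moved are not independent evidence.

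The headers of the scanner files name the image of each array. In these names, 3 of the 4 V5.TM6*P arrays at high glucose carry another array code than all other arrays of the series. They are both arrays of the first RNA sample (36.5 g/L) and 1 of the second (34.8 g/L). The code is taken here to mark another print lot, which neither the names nor the labels state. In the labels no array is marked as different. That lot holds only V5.TM6*P at high glucose, so it was left out as an alternative, in which V5.TM6*P is represented by the single remaining array of its second RNA sample, assumed to vary like the other samples. The 2 arrays of this RNA sample, which lie in different lots, had a median difference of 0.456 on the log2 scale and a Pearson correlation of 0.82 across probes. The other pairs of arrays in the series had median differences of 0.344 to 0.568 and correlations of 0.749 to 0.863. A value without the other print lot is given below wherever it ends a call.

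The probes of the transporter genes that V5.TM6*P lacks were examined first. The HXT1 probe (YHR094C, a low-affinity hexose transporter) had relative levels of 18.8 and 17.1 in V5.TM6*P, against 74.4 and 58.9 in V5. That of HXT4 (YHR092C, a transporter of high affinity) had 0.685 and 0.692 in V5.TM6*P and 2.45 and 4.15 in V5. In both genes all V5.TM6*P arrays lay below all V5 arrays, and both were called lower, with log2 folds of -1.89 ± 0.32 (limma, adjusted p = 0.0242) and -2.21 ± 0.30 (adjusted p = 0.0145). HXT3 (YDR345C) had 57.7 and 40.0 in V5.TM6*P and 76.9 and 87.5 in V5, and HXT2 (YMR011W) had 0.533 and 0.637 in V5.TM6*P and 1.01 and 1.63 in V5. Their RNA samples did not overlap either, with V5.TM6*P the lower. The log2 folds of -0.77 ± 0.27 and -1.14 ± 0.36 were not called (limma, adjusted p = 0.174 and 0.144). HXT2, HXT3 and HXT4 are deleted in V5.TM6*P and are no part of the chimera. The signal of their probes there thus cannot come from these genes. The paper expects cross-reaction between HXT1 to HXT7 on the array, which was not tested here.

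The probes of HXT6 (YDR343C) and HXT7 (YDR342C), a near-identical pair of high-affinity transporters, went the other way. The HXT7 probe had relative levels of 297 and 248 in V5.TM6*P, against 81.8 and 125 in V5, and the HXT6 probe had 14.2 and 9.95 in V5.TM6*P and 3.87 and 3.94 in V5. Both were called higher in the deleted strain, with log2 folds of 1.43 ± 0.29 (limma, adjusted p = 0.0424) and 1.61 ± 0.27 (adjusted p = 0.0247). With that lot left out these were 1.25 (adjusted p = 0.134) and 1.24 (adjusted p = 0.0992). An open reading frame probe cannot tell HXT6, HXT7 and the HXT7 part of the chimera apart, nor HXT1 and the HXT1 part, so none of these probes is a clean check of the deletion. HXT5 had no named probe. Of all 1052 named probes, 104 were called higher and 31 lower. The list of hexose transporters and glucose sensors had 10 named probes, of which 3 were called higher and 2 lower, with a median log2 fold of 1.13. The 2 lower calls, and no higher one, were also made without the other print lot.

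**Figure D1:**
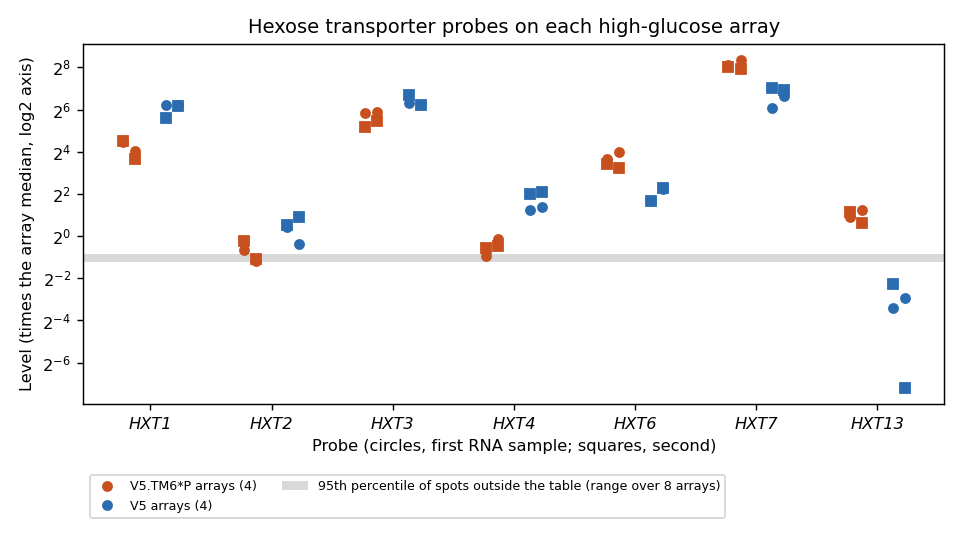
Relative level (times the array median, log2 axis) of 7 hexose transporter probes on each of the 8 high-glucose arrays, V5.TM6*P left of V5 in every pair, circles for the first RNA sample and squares for the second. HXT1 and HXT4 lie lower in V5.TM6*P on all arrays and HXT6, HXT7 and HXT13 higher, and HXT13 in V5 lies under the grey band, the range over arrays of the 95th percentile of spots outside the authors' table.

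Between the strains at high glucose, 165 of the 6330 probes were called (2.61%), 113 of them higher in V5.TM6*P (1.79%) and 52 lower (0.821%). Of these, 164 differed by at least 2-fold and 22 by at least 8-fold, 17 higher and 5 lower. A name was known for 104 of the higher and 31 of the lower probes. In all 165 both V5.TM6*P samples lay on the same side of both V5 samples, which was also so for 49.2% of all probes tested (above in 21.8% and below in 27.4%). Among the 1052 named probes it was so for 873. The median log2 fold over all probes was -0.07, and the 5th and 95th percentiles were -1.22 and 1.29. Before adjustment 1137 probes (18.0%) had a p below 0.05. Among the 113 higher probes, 31 had a V5 level at or under the limit on at least 1 of the 4 V5 arrays, and among the 52 lower probes 18 had a V5.TM6*P level there on at least 1 of the 4 V5.TM6*P arrays.

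The number of calls depended on the samples that set the spread, and was 0 with limma on only the 4 high-glucose samples. This number also depended on single RNA samples. It was 45 and 34 without the first and the second V5.TM6*P sample, and 34 and 91 without the first and the second V5 sample, where the lone sample left in a strain was assumed to vary like the other groups. In these fits 24 to 55 of the 165 were called again. Their signs could not change there, since the samples of the strains did not overlap in any of them. With the other print lot left out, 114 probes were called, 43 higher (0.679%) and 71 lower (1.12%), and 50 of the 165 were among them. Of the 165, 164 kept their direction there. That fit shares the V5 arrays and the remaining V5.TM6*P array with the fit that chose the 165, so the direction is no independent check.

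**Figure D2:**
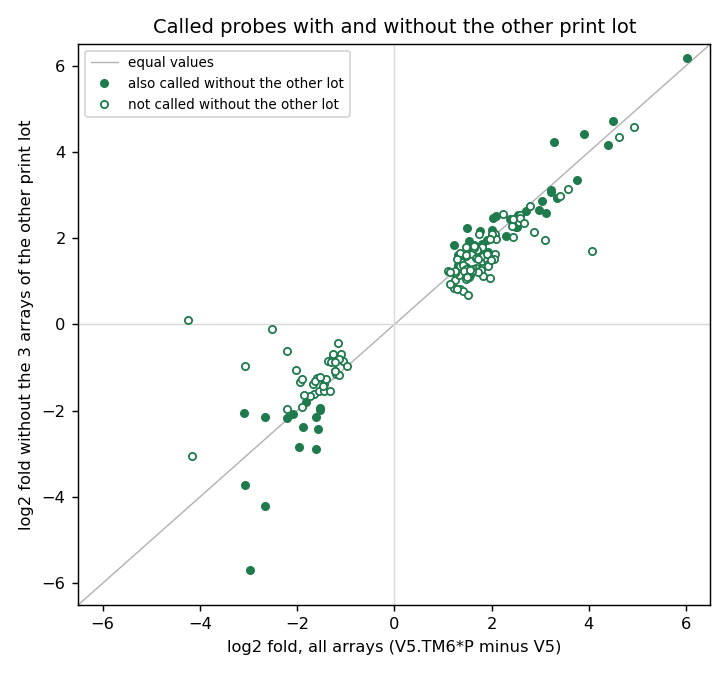
Log2 fold (V5.TM6*P minus V5) of the 165 called probes without the 3 arrays of the other print lot, on the y axis, against the log2 fold on all arrays, on the x axis; filled points were called in both fits and the line marks equal values. All but 1 of the 165 points keep their side of 0, and 50 are filled.

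Of the enzymes that phosphorylate glucose on entry into glycolysis, HXK1 and GLK1 were among the largest rises. The hexokinase gene HXK2 had no named probe. HXK1 (YFR053C, hexokinase 1, the isoform kept low on glucose) had relative levels of 124 and 69.5 in V5.TM6*P, against 2.49 and 6.73 in V5. Both V5.TM6*P samples lay far above both V5 samples, though the choice of the largest rises required samples that do not overlap. The log2 fold was 4.51 ± 0.47 (limma, adjusted p = 0.00482). GLK1 (YCL040W, glucokinase) had 8.4 and 11.1 in V5.TM6*P and 0.801 and 1.35 in V5, a log2 fold of 3.21 ± 0.34 (adjusted p = 0.00482). Its paralogue EMI2 (YDR516C) had 8.54 and 8.47 in V5.TM6*P and 0.656 and 1.28 in V5, with a log2 fold of 3.22 ± 0.31 (adjusted p = 0.00482). The sequences of these genes are alike, so that part of the signal of one probe may come from another of the 3 genes or from HXK2, which was not tested. All 3 calls were also made without the other print lot.

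For these genes and for CYB2, a lactate dehydrogenase gene described below, the study's table of binding sites lists Mig1 sites upstream. Some of them are shown because Mig1 is the repressor through which high glucose is known to act on such genes. The sequences are given as that table writes them, with the GC box in capitals and the stretch beside it in lower case. The genes were put in that table because they changed on these arrays, so a listed site is a description and not a test. The share of all promoters that hold such a box was not determined here.
HXK1: CCCCGGatttt
HXK1: CCCCGGaaattttatta
GLK1: CCCCGCattataa
EMI2: CCCCGCgtttttt
CYB2: CCCCACgctttt
CYB2: CCCCGGtata

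Genes for the uptake and use of carbon sources other than glucose were mostly higher in V5.TM6*P. Of the 14 named probes of this list 10 were called higher and none lower, and the median log2 fold was 2.55. Over all 1052 named probes, 104 were called higher and 31 lower, with a median log2 fold of 0.29, and 584 had folds above 0. These values are the background for each list below. Leaving out the other print lot, 6 of the 14 were called higher and none lower, with a median of 2.47. STL1 (YDR536W, the glycerol and proton symporter of the plasma membrane) had relative levels of 7.77 and 9.83 in V5.TM6*P, against 0.267 and 0.0677 in V5. The fitted log2 fold was 6.02 ± 0.67 (limma, adjusted p = 0.00656). The V5 level was above the limit for dim probes on only 1 of 4 arrays, and with values under the limit raised to it the log2 fold was 3.91, so that the fitted value has no rank among the rises.

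GUT1 (YHL032C, glycerol kinase) had 15.3 and 14.0 in V5.TM6*P and 1.53 and 2.08 in V5, a log2 fold of 3.03 ± 0.26 (limma, adjusted p = 0.00363). The samples of each strain lay close together here. For lactate, both the transporter and the enzyme were higher. JEN1 (YKL217W, the lactate and pyruvate permease) had 4.41 and 2.0 in V5.TM6*P, against 0.317 and 0.0466 in V5, where none of the 4 arrays was above the limit. With V5 set to the limit, the mean level of JEN1 was 5.66-fold higher in V5.TM6*P, an estimate without an error. The fitted log2 fold was 4.61 ± 0.83 (limma, adjusted p = 0.0285). Without the other print lot it was 4.35 and was not called. CYB2 (YML054C, the mitochondrial L-lactate dehydrogenase that passes electrons to cytochrome c) had 38.8 and 14.6 in V5.TM6*P and 1.87 and 1.66 in V5, with a log2 fold of 3.76 ± 0.45 (adjusted p = 0.00857).

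SUC2 (YIL162W, invertase, which splits sucrose outside the cell) had relative levels of 7.48 and 5.2 in V5.TM6*P, against 0.581 and 0.605 in V5. The log2 fold was 3.40 ± 0.53 (limma, adjusted p = 0.0213, and 0.0772 without the other print lot). DSF1 (YEL070W, a putative mannitol dehydrogenase) had 3.27 and 6.89 in V5.TM6*P and 0.347 and 0.29 in V5, under the limit on all V5 arrays. With V5 set to the limit, its mean level was 9.05-fold higher in V5.TM6*P (fitted log2 fold 3.91 ± 0.37, limma, adjusted p = 0.00482). Its neighbour on the chromosome by the order of open reading frame names, HXT13 (YEL069C, a transporter of the hexose family), had 2.1 and 1.84 in V5.TM6*P and 0.111 and 0.038 in V5. HXT13 in V5 was under the limit on all 4 arrays. With V5 set to the limit, the mean level of HXT13 was 3.75-fold higher in V5.TM6*P. Its fitted log2 fold was 4.92 ± 0.89 (limma, adjusted p = 0.0285, and 0.102 without the other print lot). Close relatives of DSF1 and HXT13 exist in the genome and may share signal with these probes.

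The list was not uniform. DLD3 (YEL071W, a cytosolic D-lactate dehydrogenase) had 13.7 and 21.5 in V5.TM6*P, against 52.1 and 34.3 in V5, a log2 fold of -1.30 ± 0.38 that was not called (limma, adjusted p = 0.123). In this gene V5 was the higher strain in all samples.

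**Figure D3:**
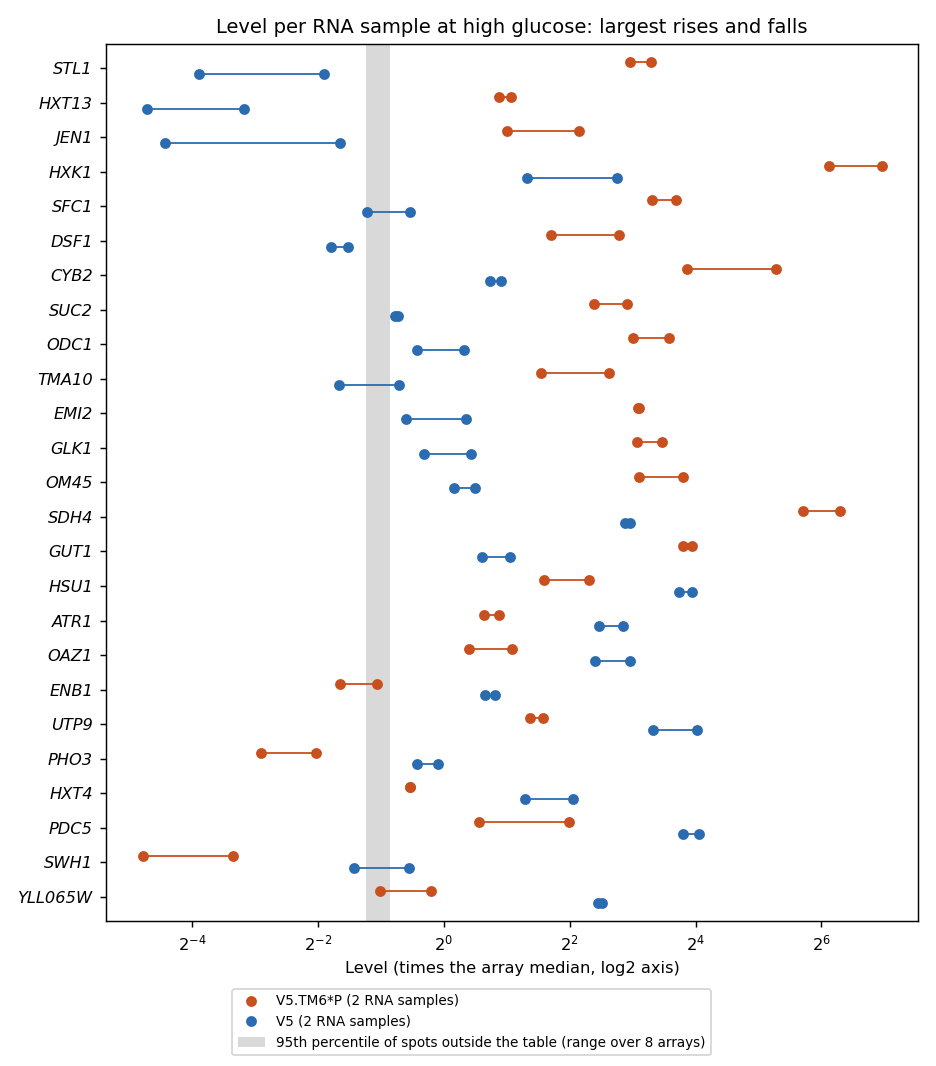
Relative level per RNA sample at high glucose (times the array median, log2 axis) of the 15 largest rises and the 10 largest falls among called named probes, with the 2 V5.TM6*P samples drawn above the 2 V5 samples of each gene and joined by a line. These 25 genes were chosen among probes whose strains do not overlap, and several of the low values lie under the grey band, the range over 8 arrays of the 95th percentile of spots outside the authors' table.

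Mitochondrial carriers, which link the cytosol with the tricarboxylic acid (TCA) cycle, included some of the largest rises. SFC1 (YJR095W, the carrier that exchanges succinate for fumarate across the inner membrane) had relative levels of 12.9 and 9.95 in V5.TM6*P, against 0.429 and 0.688 in V5. ODC1 (YPL134C, a carrier of oxodicarboxylates such as 2-oxoglutarate) had 12.0 and 8.02 in V5.TM6*P and 0.741 and 1.25 in V5. In both the strains were apart, as the choice of the largest rises required. The log2 folds were 4.38 ± 0.37 (limma, adjusted p = 0.00363) and 3.35 ± 0.35 (adjusted p = 0.00482). CRC1 (YOR100C, the carnitine carrier) had 1.44 and 0.719 in V5.TM6*P and 0.265 and 0.309 in V5, a fitted log2 fold of 1.83 ± 0.34 (adjusted p = 0.0299, and 0.119 without the other print lot). Only 1 of the 4 V5 arrays was above the limit for CRC1. Its log2 fold was 0.85 with values raised to the limit, and 1.21 (adjusted p = 0.165) with spots marked empty as missing. OAC1 (YKL120W, the oxaloacetate carrier) was not called, with 1.17 and 1.89 in V5.TM6*P and 3.48 and 2.78 in V5. Of 10 named carrier probes 5 were called higher and none lower, with a median log2 fold of 1.36, and 2 were called without the other print lot.

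The study's site table lists sites of the Cat8 type upstream of SFC1, ODC1, JEN1 and STL1, which all rose here. Some of them are shown because Cat8 is the activator known for gluconeogenic genes. The pattern is CC and CCG with 6 letters between them, and the fixed letters are in capitals. As above, these genes entered the table because they changed on these arrays.
SFC1: CCattcaaCCG
SFC1: CCattaaaCCG
ODC1: CCatccgtCCG
JEN1: CCattcccCCG
STL1: CCgtacgtCCG

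In the TCA cycle, 10 of 15 named probes were called higher and 1 lower, and the median log2 fold was 1.96. When the other print lot was left out, 5 were called higher and none lower, with a median of 1.97. Succinate dehydrogenase, which belongs to both the cycle and the respiratory chain, led the list with its membrane anchors SDH4 (YDR178W) and SDH3 (YKL141W) and its iron-sulphur subunit SDH2 (YLL041C). SDH4 had relative levels of 78.7 and 52.3 in V5.TM6*P, against 7.74 and 7.36 in V5 (log2 fold 3.09 ± 0.36, limma, adjusted p = 0.00679). Its log2 fold without the other print lot was 1.97 (adjusted p = 0.07), a smaller fold than on all arrays. SDH2 had 11.8 and 11.2 in V5.TM6*P and 2.03 and 1.91 in V5 (2.55 ± 0.33, adjusted p = 0.0127). SDH3 had 10.8 and 5.45 in V5.TM6*P and 1.06 and 1.75 in V5 (2.49 ± 0.40, adjusted p = 0.0226).

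The respiratory chain passes electrons from NADH and succinate to oxygen, and ATP synthase uses the proton gradient that results. Among the NADH dehydrogenases and complex III with cytochrome c, 4 of 10 named probes were called higher and none lower, with a median log2 fold of 1.30. NDI1 (YML120C, the internal NADH dehydrogenase of mitochondria) had relative levels of 7.67 and 9.8 in V5.TM6*P, against 1.45 and 1.83 in V5 (log2 fold 2.41 ± 0.43, limma, adjusted p = 0.0285, and 0.0922 without the other print lot). QCR10 (YHR001W-A, a small subunit of complex III) had 4.67 and 5.47 in V5.TM6*P and 0.93 and 1.15 in V5 (2.29 ± 0.25, adjusted p = 0.00607). CYT1 (YOR065W, cytochrome c1) had 6.97 and 7.99 in V5.TM6*P and 1.64 and 2.24 in V5 (1.96 ± 0.30, adjusted p = 0.0213, and 0.0534 without the other print lot). CYC1 (YJR048W, cytochrome c) had 18.2 and 26.5 in V5.TM6*P and 10.4 and 12.0 in V5, and its log2 fold of 0.97 ± 0.31 was not called (adjusted p = 0.148). The samples of the 2 strains did not overlap in any of these 4 genes, as in 873 of the 1052 named probes.

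Of 8 named probes of cytochrome c oxidase, 2 were called higher and none lower, with a median log2 fold of 1.12. COX5A (YNL052W) had 12.5 and 17.7 in V5.TM6*P, against 6.11 and 4.68 in V5 (log2 fold 1.47 ± 0.25, limma, adjusted p = 0.0242), and COX6 (YHR051W) had 10.3 and 10.6 in V5.TM6*P and 4.75 and 4.94 in V5 (1.11 ± 0.21, adjusted p = 0.0299, and 0.0675 without the other print lot). The lowest fold of this list was that of COX8 (YLR395C), with 6.08 and 6.19 in V5.TM6*P and 3.2 and 3.43 in V5 (0.89 ± 0.24, adjusted p = 0.102). Every one of the 8 folds was above 0. The samples did not overlap in these 3 genes, as in 873 of the 1052 named probes.

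ATP synthase had 8 of 15 named probes called higher and none lower, and all 15 folds were above 0, with a median of 1.26. No probe of this list was called without the other print lot, although the median was then 1.27. The largest folds were those of STF2, INH1 and TIM11, none of which is a subunit of the catalytic core. STF2 (YGR008C), known for its part in regulating the enzyme, had 4.09 and 2.82 in V5.TM6*P and 0.636 and 1.03 in V5 (log2 fold 2.07 ± 0.37, limma, adjusted p = 0.0284). INH1 (YDL181W), which inhibits ATP hydrolysis by the enzyme, had 3.07 and 2.37 in V5.TM6*P and 0.7 and 0.867 in V5 (1.79 ± 0.25, adjusted p = 0.0166). TIM11 (YDR322C-A), a subunit needed for its dimers, had 29.0 and 24.4 in V5.TM6*P and 9.32 and 7.5 in V5 (1.67 ± 0.23, adjusted p = 0.0168). The smallest fold was 0.55 ± 0.27, that of ATP14 (YLR295C), with 1.34 and 2.06 in V5.TM6*P and 1.03 and 1.26 in V5.

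Factors that assemble the respiratory complexes had 7 of 20 named probes called higher and none lower, with a median log2 fold of 0.87 and all 20 folds above 0. Only 2 of them were called without the other print lot. SUE1 (YPR151C), required for the breakdown of unstable cytochrome c, had 5.39 and 4.19 in V5.TM6*P, against 0.958 and 0.72 in V5 (log2 fold 2.52 ± 0.26, limma, adjusted p = 0.00482). COX17 (YLL009C), the copper chaperone of cytochrome c oxidase, had 13.8 and 18.3 in V5.TM6*P and 4.56 and 4.39 in V5 (1.83 ± 0.26, adjusted p = 0.0169, and 0.0531 without the other print lot). SCO1 (YBR037C), which also brings copper to the oxidase, lay at the other end of the list with 2.96 and 2.88 in V5.TM6*P and 2.14 and 2.45 in V5 (0.35 ± 0.23, adjusted p = 0.482).

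The mitochondrial ribosome makes the few proteins that mitochondrial DNA encodes, core subunits of the respiratory complexes among them. All 50 named probes had folds above 0, with a median log2 fold of 0.90, and 3 were called higher. This is a smaller share than the 104 of all 1052 named probes that were called higher. Leaving out the other print lot, 1 was called, with a median of 0.88. MRPL35 (YDR322W) had 11.6 and 16.2 in V5.TM6*P, against 3.59 and 5.07 in V5 (log2 fold 1.69 ± 0.28, limma, adjusted p = 0.0242), and MRPL22 (YNL177C) had 48.4 and 37.4 in V5.TM6*P and 16.6 and 16.8 in V5 (1.35 ± 0.23, adjusted p = 0.0247). On the remaining lot these were 1.54 (adjusted p = 0.07) and 0.82 (adjusted p = 0.162). The names in this list are of genes that the study listed as changed, so the count of folds above 0 does not describe the whole mitochondrial ribosome.

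OM45 (YIL136W), an abundant protein of the mitochondrial outer membrane, and TMA10 (YLR327C), a small protein found with ribosomes, belong to none of the lists. OM45 had relative levels of 14.0 and 8.55 in V5.TM6*P, against 1.12 and 1.41 in V5, with a log2 fold of 3.12 ± 0.31 (limma, adjusted p = 0.00482). TMA10 had 2.93 and 6.15 in V5.TM6*P and 0.315 and 0.611 in V5, with a log2 fold of 3.27 ± 0.44 (adjusted p = 0.0149). The strains were apart in both, as the choice of the largest rises required.

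**Figure D4:**
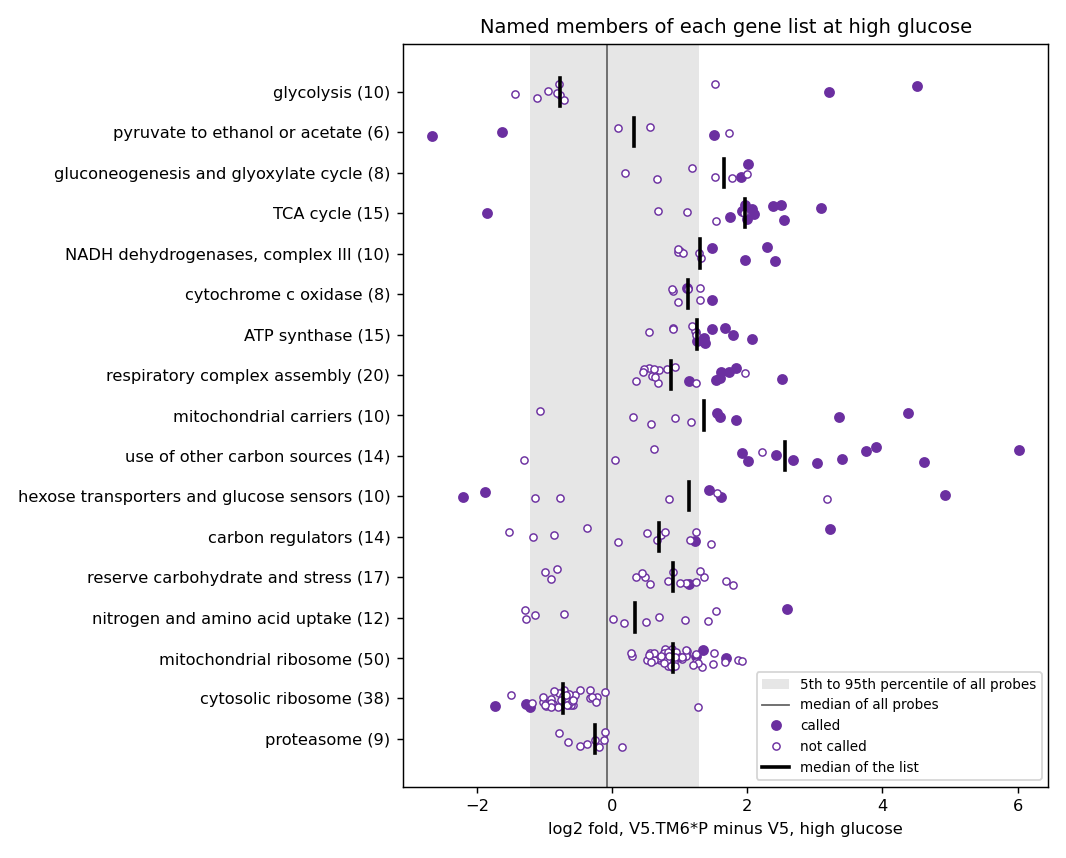
Log2 fold at high glucose (V5.TM6*P minus V5) of the named members of 17 gene lists, 1 point a probe, filled where called, with the list median as a black bar and the number of named probes in brackets; the grey line and band are the median and the 5th to 95th percentile of all 6330 probes. The medians of the carbon source (2.55), TCA cycle (1.96), gluconeogenesis and glyoxylate (1.65) and mitochondrial carrier (1.36) lists lie to the right of the band. That of the NADH dehydrogenases with complex III (1.30) lies at its edge, and that of the cytosolic ribosome (-0.72) to the left of 0. The median of the 1052 named probes was 0.29.

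Below the hexokinase step of glycolysis most folds were below 0, but no probe was called. The list had 10 named probes with a median log2 fold of -0.78, and its 2 calls, both higher, were HXK1 and GLK1. CDC19 (YAL038W, the main pyruvate kinase) had relative levels of 3.37 and 5.82 in V5.TM6*P, against 13.0 and 11.1 in V5. Its samples did not overlap, as in 873 of the 1052 named probes. The log2 fold of -1.44 ± 0.37 was not called (limma, adjusted p = 0.0918).

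The pyruvate decarboxylases, which commit pyruvate to ethanol, were called lower. PDC5 (YLR134W) had relative levels of 1.48 and 3.95 in V5.TM6*P, against 14.0 and 16.7 in V5, a log2 fold of -2.66 ± 0.43 (limma, adjusted p = 0.0226). PDC1 (YLR044C, the main isoform) had 7.27 and 11.7 in V5.TM6*P and 27.1 and 30.1 in V5, a log2 fold of -1.63 ± 0.34 (adjusted p = 0.0449, and 0.129 without the other print lot). These genes are alike in sequence, and part of the PDC5 signal may come from PDC1. SFA1 (YDL168W), a dehydrogenase of long-chain alcohols and of the glutathione adduct of formaldehyde, was the one higher call of this list, with 55.7 and 42.6 in V5.TM6*P and 19.0 and 15.4 in V5 (1.51 ± 0.31, adjusted p = 0.0449, and 0.138 without the other print lot). ALD6 (YPL061W, the cytosolic aldehyde dehydrogenase) had 16.2 and 17.4 in V5.TM6*P and 6.14 and 4.22 in V5 (1.73 ± 0.45, adjusted p = 0.0918). In all, 1 of 6 named probes of the route to ethanol and acetate was called higher and 2 lower, with a median log2 fold of 0.33.

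Gluconeogenesis and the glyoxylate cycle had 8 named probes, all with folds above 0 and a median log2 fold of 1.65, of which 2 were called higher. None was called without the other print lot. IDP2 (YLR174W, the cytosolic NADP-dependent isocitrate dehydrogenase) had relative levels of 8.2 and 7.96 in V5.TM6*P, against 1.45 and 2.76 in V5 (log2 fold 2.02 ± 0.36, limma, adjusted p = 0.0283). MDH2 (YOL126C, the cytosolic malate dehydrogenase) had 2.43 and 1.7 in V5.TM6*P and 0.498 and 0.598 in V5 (1.90 ± 0.32, adjusted p = 0.0242). ICL1 (YER065C, isocitrate lyase) had 3.17 and 2.31 in V5.TM6*P and 2.81 and 2.0 in V5, so that the strains overlapped, and its log2 fold was 0.19 ± 0.31 (adjusted p = 0.801).

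The list of carbon regulators had 14 named probes with a median log2 fold of 0.69. Of all 1052 named probes, 104 were called higher and 31 lower. Of this list 2 were called higher and none lower, which is near that share. One was EMI2, given above as a paralogue of GLK1. The other was OPI1 (YHL020C, a repressor of phospholipid synthesis genes), with 1.97 and 1.82 in V5.TM6*P, against 0.733 and 0.898 in V5 (log2 fold 1.22 ± 0.21, limma, adjusted p = 0.0256). By these descriptions neither is itself a regulator of carbon genes, so the calls do not show a change of such a regulator. MIG3 (YER028C, a relative of Mig1) had 0.225 and 0.4 in V5.TM6*P, under the limit on all 4 arrays, and 0.909 and 0.816 in V5, and was not called (adjusted p = 0.399). Transcript levels say nothing here of the activity of these proteins, much of which is set by phosphorylation.

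Reserve carbohydrate and stress genes had a median log2 fold of 0.90 over 17 named probes with 1 called, YHB1 (YGR234W, the flavohaemoglobin that removes nitric oxide), at 51.9 and 44.7 in V5.TM6*P against 20.4 and 23.5 in V5 (1.14 ± 0.24, limma, adjusted p = 0.0489, and 0.158 without the other print lot). Of 12 named probes for the uptake and use of amino acids and other nitrogen sources 1 was called, PUT4 (YOR348C, the proline permease), with 3.32 and 3.46 in V5.TM6*P and 0.417 and 0.76 in V5 (2.59 ± 0.40, adjusted p = 0.0213, and 0.0615 without the other print lot). The median of that list was 0.34, and neither count is above the share of all named probes called higher (104 of 1052). No call was made without the other print lot in either list.

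The cytosolic ribosome stood on the lower side. Of 38 named probes 37 had folds below 0, with a median log2 fold of -0.72, and 3 were called lower and none higher. RPL43B (YJR094W-A) had relative levels of 1.99 and 2.04 in V5.TM6*P, against 6.75 and 6.68 in V5 (log2 fold -1.74 ± 0.30, limma, adjusted p = 0.0279). RPS9A (YPL081W) had 1.85 and 1.5 in V5.TM6*P and 4.76 and 3.38 in V5 (-1.27 ± 0.24, adjusted p = 0.0299), and RPL17B (YJL177W) had 7.67 and 7.73 in V5.TM6*P and 19.7 and 16.2 in V5 (-1.21 ± 0.26, adjusted p = 0.0494). None of the 3 was called without the other print lot, and the median of the list was then -0.52. RPS27A (YKL156W) was the exception above 0, at 1.28 ± 0.30 (adjusted p = 0.0692). Most of these proteins are encoded by pairs of near-identical genes, so a probe may read both members. The 9 named proteasome probes had a median log2 fold of -0.26, and none was called by limma, with 2 at an unadjusted p below 0.05.

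The other falls of the 10 largest belong to none of the lists. YLL065W, an open reading frame annotated as dubious, had relative levels of 0.871 and 0.493 in V5.TM6*P, against 5.44 and 5.71 in V5 (log2 fold -3.09 ± 0.35, limma, adjusted p = 0.00676). SWH1 (YAR042W, an oxysterol-binding protein homologue) had 0.0982 and 0.0362 in V5.TM6*P, under the limit on all 4 arrays, and 0.371 and 0.679 in V5. With V5.TM6*P set to the limit, its mean level was only 1.01-fold lower. The fitted log2 fold was -3.07 ± 0.53 (limma, adjusted p = 0.0261). With spots marked empty as missing it was -1.25 (adjusted p = 0.0829). PHO3 (YBR092C, an acid phosphatase) had 0.133 and 0.245 in V5.TM6*P and 0.741 and 0.935 in V5 (-2.21 ± 0.32, adjusted p = 0.0192), where 1 of 4 V5.TM6*P arrays was above the limit. With values raised to the limit the log2 fold of PHO3 was -0.72, and with spots marked empty as missing it was -1.03 (adjusted p = 0.0516). Its log2 fold without the other print lot was -0.63 (adjusted p = 0.336).

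UTP9 (YHR196W, a nucleolar protein of ribosomal RNA processing) had 2.59 and 2.97 in V5.TM6*P, against 16.2 and 10.0 in V5, with a log2 fold of -2.20 ± 0.33 (limma, adjusted p = 0.0208, and 0.07 without the other print lot). ENB1 (YOL158C, a transporter of iron bound to enterobactin) had 0.317 and 0.48 in V5.TM6*P and 1.76 and 1.57 in V5, with a log2 fold of -2.09 ± 0.32 (adjusted p = 0.0213), and 1 of 4 V5.TM6*P arrays was above the limit. OAZ1 (YPL052W, the antizyme that regulates ornithine decarboxylase), ATR1 (YML116W, a drug efflux pump) and HSU1 (YLL058W) had log2 folds of -1.94 ± 0.34, -1.90 ± 0.37 and -1.89 ± 0.33. Their adjusted p without the other print lot were 0.135, 0.1 and 0.127. Both V5.TM6*P samples lay below both V5 samples in all of these genes, as the choice of the largest falls required.

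The strain difference at high glucose was set beside that at the other glucose levels. At low glucose 26 probes were called (0.411%), 19 higher (0.3%) and 7 lower (0.111%), and at middle glucose 42 (0.664%), 36 higher (0.569%) and 6 lower (0.0948%). Of the 165 called at high glucose, 16 were also called at low glucose and 35 at middle glucose, in the same direction. The 165 were chosen on the values at high glucose, so that a smaller difference elsewhere would arise from the choice alone, and their folds at the other levels are given as a description. The sign was the same at low glucose in 151 and at middle glucose in 155.

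When the change of the strain difference between glucose levels was itself tested, no probe was called by limma, neither from high to low glucose (smallest adjusted p = 0.151, with 494 probes, 7.8%, at an unadjusted p below 0.05) nor from high to middle (smallest adjusted p = 0.468, with 303 probes, 4.79%). Leaving out that lot, 12 and 13 probes were called. The named probes with the smallest adjusted p for the change from high to low glucose all had an adjusted p of at least 0.333. For HXK1 the log2 fold was 0.88 at low, 3.33 at middle and 4.51 at high glucose. Its mean relative level was 82.4, 87.1 and 93.0 at low, middle and high glucose in V5.TM6*P, and 44.9, 8.65 and 4.09 in V5, so that the level in V5 was the one that differed most between the glucose levels.

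GLK1 and EMI2 had the same order. The log2 fold of GLK1 was 0.90 at low, 1.80 at middle and 3.21 at high glucose, with mean levels of 9.87, 6.6 and 9.65 in V5.TM6*P and 5.28, 1.89 and 1.04 in V5. That of EMI2 was 0.99, 2.06 and 3.22, with levels of 5.97, 6.77 and 8.5 in V5.TM6*P and 3.02, 1.62 and 0.915 in V5. QCR10 (0.47, 1.14 and 2.29) and IRS4 (YKR019C, a protein with a role in phosphoinositide levels, 1.37, 1.75 and 2.71) also had their largest log2 fold at high glucose. IRS4 had relative levels of 21.4 and 19.6 in V5.TM6*P and 3.05 and 3.23 in V5 at high glucose. For YPR148C the log2 folds were 0.06, 1.29 and 2.00 (at high glucose adjusted p = 0.0208, and 0.0536 without the other print lot), and for the lower YLL065W they were -0.79, -1.30 and -3.09.

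PUT1 (YLR142W, proline oxidase) was dim in both strains. At low glucose its relative levels were 0.704 and 0.483 in V5.TM6*P and 0.0462 and 0.0378 in V5, the V5 levels lying far under the limit set on the high-glucose arrays, so that the fitted log2 fold of 3.80 there is no measure of size. The log2 fold was 0.73 at middle and 0.69 ± 0.40 at high glucose, where it was not called (limma, adjusted p = 0.411). At high glucose its relative levels were 0.627 and 0.822 in V5.TM6*P and 0.346 and 0.572 in V5, close to the limit for dim probes. Other genes differed by like amounts at all 3 levels. The log2 fold of SFC1 was 4.68 at low, 4.08 at middle and 4.38 at high glucose, that of GUT1 was 2.57, 2.34 and 3.03, and that of PDC5 was -3.40, -2.98 and -2.66. HXT7 differed by 0.01 at low, 1.31 at middle and 1.43 at high glucose, with mean levels of 232, 268 and 271 in V5.TM6*P and of 230, 108 and 101 in V5.

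**Figure D5:**
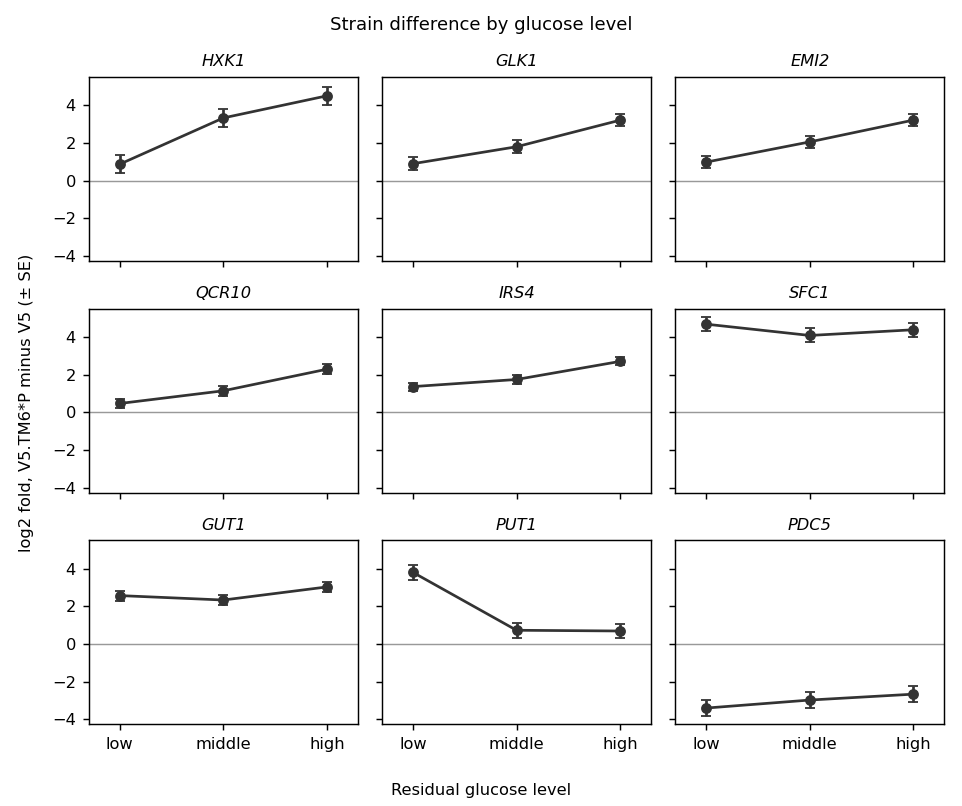
Log2 fold of V5.TM6*P minus V5 (± SE of the limma fit) at low, middle and high residual glucose for 9 genes. HXK1, GLK1, EMI2, QCR10 and IRS4 have their largest fold at high glucose, and SFC1, GUT1 and PDC5 differ at all 3 levels. The value of PUT1 at low glucose rests on V5 levels under the limit, and no change between levels was called.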

How the data were processed

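The authors scanned each exposed filter and quantified it with Imagene. The deposited scanner files give 2 linear intensity values a spot, the median over its pixels and the median over the pixels around it, and nothing has been subtracted in them. The authors' table, deposited as background-subtracted values with an unstated scaling and column medians of 1.36 to 1.54 (treated here as a score), was used for gene names and as an alternative. The platform's gene names were not used here: probes were named by matching statistics computed from the authors' table with the genes listed in the study's additional files, and 1052 of 6330 probes were named, 987 of them found in RefSeq. The additional files also hold the authors' own factor changes and p-values, which are not reported.

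For each array the difference of these medians was raised to a floor of 0.1 where it was smaller (1.49% of values) and converted to log2. Paired spots (1147 probes) were averaged, each array was centred on its median, and the 2 arrays hybridized with the same RNA were averaged. limma 3.58.1 (R 4.3.3, statmod 1.5.0) was fitted to 6 groups of 2 RNA samples (2 strains at 3 glucose levels, 6 residual degrees of freedom), which share 1 estimate of the spread, with Benjamini-Hochberg adjustment over all probes. Tables and figures were made with Python 3.11.15, pandas 2.3.3, numpy 2.4.6 and matplotlib 3.10.9. The fit was tested on simulated data, in which it called 10.6% of the 2-fold and 56.5% of the 4-fold changes put in. A probe that was not called may thus still differ. The number of arrays limits the precision.

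The samples compared and the gene lists were chosen with earlier results of these data known. Named genes are the 15 largest rises and 10 largest falls among called named probes whose strains do not overlap, the 8 named probes with the smallest adjusted p for the change from high to low glucose, up to 4 members of each of 17 lists (the extremes and called ones), and the deleted transporters. The result for 1 gene is not reported here, and it stays in the counts. A probe is under the limit when it is below the 95th percentile of the 2123 spots left out of the authors' table on that array. Alternatives changed the floor, background correction, normalization, source of values, treatment of spots marked empty, filter on dim probes, samples, variance model and print lot. The count of probes whose difference changed from high to middle glucose and the list counts under these alternatives, and the values raised to the limit, were added after the data were seen.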

Additional observations from a re-analysis of the deposited data

Results flagged for a closer look

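The authors' table leaves out 2123 spots, whose median level was 0.144 to 0.192 times the array median on the 8 high-glucose arrays. Of these, 2 spots were above the array median on all 8 arrays, a signal in data that no comparison above uses. The first (row 70, column 46) had relative levels of 5.86, 7.57, 8.8 and 7.21 on the V5.TM6*P arrays, against 1.74, 2.04, 1.38 and 2.22 on the V5 arrays. The second (row 70, column 71) had 3.3, 2.43, 2.52 and 2.82 in V5.TM6*P and 1.96, 1.84, 1.02 and 1.89 in V5. What these spots hold is not given in the sources used here.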

How the results depend on the processing

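The number of probes called at high glucose (165) was 527 with normexp and quantile normalization, 329 on the authors' table, 356 without the dimmest 25% of probes, 455 with a variance trend, 586 on all 24 arrays with the RNA sample as a random block, 418 with a line on glucose read at 36 g/L, and 0 by limma on only the 4 high-glucose samples, which leave 2 residual degrees of freedom. In the same order, the number of probes called higher at high glucose (113) was 296, 224, 220, 257, 310, 259 and 0, and the number of probes called lower at high glucose (52) was 231, 105, 136, 198, 276, 159 and 0. With spots marked empty as missing, 88 were lower. Without the other print lot 43 were higher, and with the lot as a covariate 99 were lower. Leaving out 1 RNA sample gave 34 to 91 calls, 22 to 83 higher and 3 to 20 lower. With the sampling number as a replicate block, 0 probes were called in either direction by limma. The correlations of same-numbered deviations were 0.0459, 0.0474 and 0.0274. Arrays of the same RNA sample had a fitted correlation of only 0.0388, so this check could not decide whether the numbers pair the samples. The number of probes whose strain difference changed from high to low glucose was 1 with marked spots missing, 4 with a variance trend, 11 on all 24 arrays, 12 without the other lot, 32 with the lot as a covariate and 0 to 2 with 1 sample left out. From high to middle glucose it was 13 both without the lot and with it as a covariate. The log2 fold of ICL1 lay between -0.06 and 0.44 with 1 sample left out, below 0 without the first V5.TM6*P sample (-0.04) and without the second V5 sample (-0.06), and that of MRP21 was -0.12 on the authors' table. Of the 57 genes called and named by the rule, 24 were also called without the other lot and 31 with the lot as a covariate, and none reversed under any alternative, which leaving out 1 sample could not bring about. The cause was not tested.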

Other observations

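Some of the called probes that the lists and the naming rule leave out are of genes with known roles in mitochondria. They were chosen after their values were seen. MPC3, a subunit of the mitochondrial pyruvate carrier, had relative levels of 12.8 and 7.78 in V5.TM6*P, against 0.978 and 1.64 in V5 (log2 fold 2.98 ± 0.34, limma, adjusted p = 0.00676). RCF1 and RCF2, which help to form respiratory supercomplexes, had log2 folds of 1.91 ± 0.29 and 1.75 ± 0.32, and the outer membrane channel POR1 one of 1.54 ± 0.20. KGD4, a small subunit of the 2-oxoglutarate dehydrogenase complex, had 4.28 and 5.81 in V5.TM6*P and 1.31 and 1.58 in V5 (1.79 ± 0.27, adjusted p = 0.0205). HEM2, an enzyme of haem synthesis, had 7.82 and 8.04 in V5.TM6*P and 2.46 and 2.1 in V5 (1.80 ± 0.22, adjusted p = 0.00951). MIC60, which shapes the cristae of the inner membrane, had 1.21 and 2.06 in V5.TM6*P and 0.273 and 0.5 in V5 (adjusted p = 0.0299). Without the other print lot RCF1 (adjusted p = 0.0723) and HEM2 (adjusted p = 0.0524) were not called.

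Among the lower probes, also chosen after the values were seen, were HIS1, the first enzyme of histidine synthesis, at 9.11 and 10.5 in V5.TM6*P, against 36.6 and 25.9 in V5 (log2 fold -1.66 ± 0.25, limma, adjusted p = 0.0213), and subunits of the translation initiation factor eIF2B, GCD1 (-1.53 ± 0.25, adjusted p = 0.024) and GCN3 (-1.06 ± 0.21, adjusted p = 0.0385). ITR2, a transporter of myo-inositol, had a log2 fold of -1.13 ± 0.21 (adjusted p = 0.0299). Of these 4, only GCD1 was called without the other print lot (adjusted p = 0.0302).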
